A study of Mus musculus with 8 samples.

Results

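The genes described here encode 32 subunits of the receptors for glutamate and GABA in the mouse dentate gyrus. They comprised the AMPA receptor subunits Gria1, Gria2, Gria3 and Gria4, the NMDA receptor subunits Grin1, Grin2a, Grin2b, Grin2c, Grin2d and Grin3a, and the kainate receptor subunits Grik1, Grik2, Grik3, Grik4 and Grik5. The metabotropic glutamate receptors were Grm2, Grm3, Grm4, Grm5, Grm7 and Grm8. The GABA-A receptor subunits were Gabra2, Gabra3, Gabra4, Gabra5, Gabrb1, Gabrb2, Gabrg1, Gabrg3 and Gabrd, and the GABA-B receptor subunits were Gabbr1 and Gabbr2. All probes that carried one of these symbols were taken, 84 of the 56605 probes on the array, and each subunit was read through its brightest probe. All 32 passed the filter on dim probes, among 19893 genes kept of 26894, and each was well above background by that probe on all 8 arrays. For Grin2d, Grin3a, Grm2 and Grm4 the array held other probes, and none of these passed the filter.

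The dentate gyrus came from male C57BL/6 mice aged 8 to 9 weeks, and each RNA sample was hybridised to its own 1-colour Agilent array. The Derlin proteins span the membrane of the endoplasmic reticulum and help to clear misfolded proteins from it. The Derlin-1 controls carried floxed Derlin-1 alleles (Derlin-1flox/flox) and the Derlin-1 KO mice carried the same alleles with Cre recombinase driven by the nestin promoter. The Derlin-2 controls (Derlin-2flox/flox) and Derlin-2 KO mice were made in the same way, with 2 arrays in each of the 4 groups. Cre under the nestin promoter acts in neural progenitors during development and therefore in neurons and glia derived from them, the controls had no Cre, and since the genotype label of a KO sample gives only the floxed alleles, the KO groups rest on the sample titles. Nothing in the labels says that arrays of a group came from separate animals, and p-values therefore measure the spread between these samples, which may be technical. All 4 arrays of a line lay on one slide, the controls on the first 2 positions and the KO samples on the next 2, so that position and genotype cannot be told apart, nor can slide and line.

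Glutamate opens AMPA, NMDA and kainate receptors, which are cation channels assembled from several subunits, and also acts on metabotropic receptors that signal through G proteins. GABA opens GABA-A receptors, which are chloride channels of mixed subunits, and acts on GABA-B receptors, which require both Gabbr1 and Gabbr2. Granule cells, the principal neurons of the dentate gyrus, receive glutamate from the entorhinal cortex and GABA from local interneurons, and the delta subunit Gabrd is known there for GABA-A receptors outside synapses.

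Between 67.5% and 70.3% of probes were well above background on each array, no spot was saturated, and the number of arrays limits the precision. The correlation between arrays was 0.987 to 0.995 within a group and 0.966 to 0.985 between lines. The Derl2 probe read 11.36 and 11.22 in the Derlin-2 controls and 10.63 and 10.65 in the Derlin-2 KO arrays, on the log2 scale used throughout. The Derl1 probe read 10.86 and 10.76 in the Derlin-1 controls and 10.56 and 10.65 in the KO arrays, and its place relative to the deleted exons was not examined, so that it does not settle the labels of that line. All 8 markers of granule neurons were well above background on every array, as were all 10 markers of CA pyramidal neurons, which lie outside the dentate gyrus.

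The first question was whether deletion of Derlin-1 altered receptor expression. No subunit passed an adjusted p of 0.05 in limma, in a comparison that called 0% of all 39933 probes tested. An unadjusted p under 0.05 was reached by 0 subunits, against 4.23% of all genes read through their brightest probe. The KO mean was above the control mean for 14 subunits and below it for 18, with a median log2 difference of -0.019 beside -0.020 for all genes. Both KO arrays lay above both controls for 4 subunits (Grin2a, Grik3, Gabrb1 and Gabrg3), a position held by 16.2% of all genes, and below both for 4 (Grik4, Grik5, Grm3 and Gabrg1), a position held by 17.9%. A difference of at least 1.5-fold was seen for 1 subunit, Grin2a, against 4.03% of all genes. The 95% interval stayed within a 1.5-fold change in either direction for 22 subunits and within 2-fold for 30, Grin2a and Grik1 being the exceptions.

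In the Derlin-2 line, likewise, no subunit passed the adjusted threshold in limma, where 14 of 39787 probes, or 0.0352%, were called. An unadjusted p under 0.05 was reached by 1 subunit, Grin1, against 4.64% of all genes. The KO mean was above the control mean for 14 subunits and below it for 18, with a median log2 difference of -0.042 beside 0.0078 for all genes. Both KO arrays lay above both controls for Grik2 and Gabra2, a position held by 17.9% of all genes. They lay below for 7 subunits (Gria1, Grin1, Grin3a, Grik1, Gabrb1, Gabrg1 and Gabbr1), a position held by 14.6%. No subunit differed by 1.5-fold or more, against 4.57% of all genes. The interval stayed within 1.5-fold for 21 subunits and within 2-fold for 29, the others being Grin2a, Grin2d and Grik1. In bulk tissue, fewer cells of a type and less RNA per cell cannot be told apart.

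**Figure D1:**
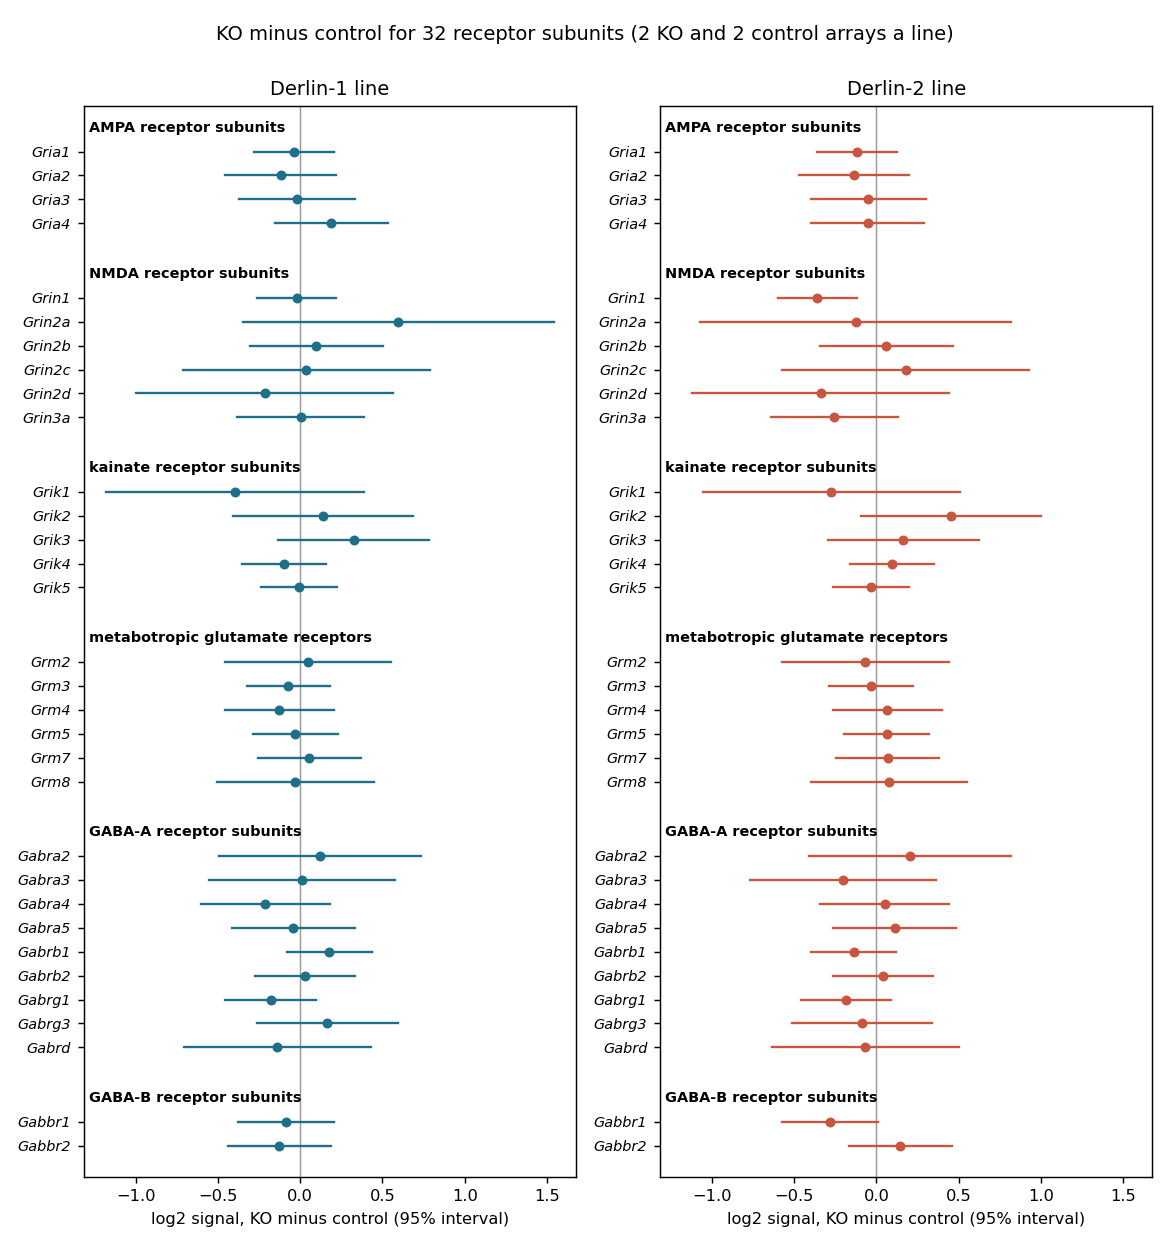
Log2 signal in KO minus control for the 32 subunits, by receptor class, in the Derlin-1 line (left) and the Derlin-2 line (right); points are differences of means of 2 arrays and bars are 95% intervals from limma. All intervals include 0 except that of Grin1 in the Derlin-2 line, and the bars are widest for Grin2a, Grin2c, Grin2d and Grik1.

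The effect of deletion was also compared between lines and averaged over them. The difference of the KO effects passed the adjusted threshold in limma for 0 subunits, where 0.00503% of all probes were called, and reached an unadjusted p under 0.05 for 0, against 4.49% of all genes. It was at least 1.5-fold for 1 subunit, Grin2a, against 8.84% of all genes. The mean effect of both lines passed for 0 subunits, where 0.0101% of probes were called, and reached an unadjusted p under 0.05 for 1, Grin1, against 4.52%, and it was at least 1.5-fold for 0, against 2.07%. The sign of the difference was the same in both lines for 18 subunits. Gabrg1 was the only subunit whose KO arrays lay below the controls in each line, as did 2.9% of all genes, and none had KO arrays above the controls in each line, as did 2.85%.

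Among the AMPA receptor subunits, which carry most fast excitatory transmission, all 4 had intervals within 1.5-fold in both lines by the brightest probe. Gria1, a subunit of receptors inserted during plasticity, averaged 16.23 ± 0.075 in the Derlin-1 controls and 16.20 ± 0.049 in KO (SD, n = 2). In the Derlin-2 line it averaged 16.12 ± 0.064 in controls and 16.01 ± 0.043 in KO. Its KO arrays in that line, 16.04 and 15.98, lay just below the lower control, 16.08, and its log2 difference of -0.12 had an SE of 0.100. Gria2, which makes the channel impermeable to calcium once its RNA is edited, differed by -0.12 on deletion of Derlin-1 and by -0.14 on deletion of Derlin-2, with an SE of 0.137 in each. Gria3 differed by -0.018 and -0.049, and Gria4 by 0.19 and -0.054. All 4 estimates of the Derlin-2 line were negative by the brightest probe, as were those of 9446 of 19810 genes. They remained so with 75th percentile scaling, with normexp background correction and in the deposited normalized values. Over all settings tried, Gria3 and Gria4 each changed sign in 1, reaching 0.022 and 0.059 in that line. A dimmer probe of Gria1 and one of Gria4 were slightly positive there, at 0.0061 and 0.0034.

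Grin1 encodes the obligatory subunit of every NMDA receptor, and its 250 bases before the RefSeq start (chr2:25319188-25319437, GRCm38.p6, minus strand) are printed because this subunit had the smallest p in any comparison. Capitals mark the E-box CACGTG, which reads the same on both strands.
Grin1: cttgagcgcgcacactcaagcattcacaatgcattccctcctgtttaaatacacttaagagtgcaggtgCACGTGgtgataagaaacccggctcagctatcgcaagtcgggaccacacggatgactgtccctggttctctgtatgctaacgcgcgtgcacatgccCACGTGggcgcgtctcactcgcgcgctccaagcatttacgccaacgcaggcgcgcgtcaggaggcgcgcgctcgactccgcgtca
The E-box occurred 2 times in this window, which held 27 CpG dinucleotides against a median of 6 in all promoter windows of this length. It was present in 6.02% of the 32851 windows searched, and among the 23 subunits with an entry in the RefSeq promoter table only in that of Grin1.

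Grin1 read 11.62 and 11.66 in the Derlin-1 controls and 11.64 and 11.61 in the Derlin-1 KO arrays. It read 11.59 and 11.72 in the Derlin-2 controls and 11.34 and 11.26 in the Derlin-2 KO arrays. The groups of the Derlin-1 line thus overlapped, whereas in the Derlin-2 line both KO arrays lay below both controls, as did those of 14.6% of all genes. The log2 difference in the Derlin-2 line was -0.36 (SE 0.099, 95% interval -0.60 to -0.12), a change of -22.0%, with an adjusted p = 0.666 in limma. In the Derlin-1 line it was -0.021 (interval -0.26 to 0.22). The KO effects of the lines differed by 0.34 (interval -0.0036 to 0.68, adjusted p = 0.852 in limma), and their mean was -0.19 (interval -0.36 to -0.019, adjusted p = 0.9998 in limma). The other kept Grin1 probes did not all show the same size. A dimmer probe differed by -0.38 in the Derlin-2 line (SE 0.204, adjusted p = 0.976 in limma) and by 0.17 in the Derlin-1 line, and the dimmest by -0.016 and -0.032. Markers of other cells differed too. In the Derlin-2 line the summed signal of interneuron markers was 138671 to 151625 in controls and 124348 to 127884 in KO, and 9 of 10 markers were lower. In the Derlin-1 line, where the Grin1 groups overlapped, that sum was 110201 to 116808 in controls and 122882 to 136138 in KO, with 7 of 10 markers higher. All 10 were well above background on every array. The sum over newborn neuron markers in the Derlin-2 line was 6442 to 7570 in controls and 8520 to 8609 in KO, with a higher KO mean for all 6 kept of 7, and in the Derlin-1 line it was 7346 to 9884 in controls and 7313 to 8468 in KO. In the Derlin-2 line the KO sums also lay below both controls for markers of astrocytes and CA pyramidal neurons, and above them for endothelium. The KO mean was nevertheless higher for 5 of 9 astrocyte markers. It was higher for 4 of 10 CA pyramidal markers and for 4 of 6 endothelial markers. The part of these cell types in the Grin1 value was not tested.

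Grin2a, the subunit that predominates in mature forebrain NMDA receptors together with Grin2b, had the largest estimate of the 32. It read 12.52 and 12.11 in the Derlin-1 controls and 13.09 and 12.73 in KO. It read 12.23 and 11.04 in the Derlin-2 controls and 11.51 and 11.52 in KO. Both Derlin-1 KO arrays lay above their controls, whereas the Derlin-2 KO arrays lay between theirs. The log2 difference was 0.60 in the Derlin-1 line (SE 0.387, interval -0.35 to 1.54, adjusted p = 0.9999 in limma) and was -0.12 in the Derlin-2 line, which became 0.47 without Derlin-2 control replicate 1. The interval thus included a 1.5-fold change in both directions in the Derlin-2 line (-1.07 to 0.82). The remaining Grin2a probes differed by -0.0041 and 0.040 in the Derlin-1 line and by -0.092 and -0.12 in the Derlin-2 line, and neither showed the higher KO signal of the brightest probe. In the Derlin-1 line, the summed signal of 10 immediate early genes, which neuronal activity induces, was 21891 to 22333 in controls and 25171 to 27098 in KO. All 10 had a higher KO mean, as did 8761 of 19890 genes, and 0 passed the adjusted threshold in limma. Other lists differed in that line too. The KO sums lay above both controls for markers of interneurons, CA pyramidal neurons, endothelium and choroid plexus. The KO mean was higher for 7 of 10, 6 of 10, 4 of 6 and 5 of 6 of these markers. The KO sums lay below both controls for microglia, where 0 of 7 markers had a higher KO mean. The part of these lists in the Grin2a value was not tested.

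Of the other NMDA receptor subunits, Grin2b, which is prominent in young neurons, differed by 0.098 in the Derlin-1 line and by 0.059 in the Derlin-2 line. Grin2c differed by 0.037 and 0.18, and Grin2d, which is known from interneurons, by -0.22 and -0.34, with SEs of 0.308 and 0.320 that left intervals of up to -1.12. Grin3a, which lowers the calcium permeability of NMDA receptors, read 11.61 and 11.38 in the Derlin-2 controls and 11.25 and 11.23 in KO. Its difference was -0.25 (SE 0.158, adjusted p = 0.990 in limma) in that line and 0.00395 in the Derlin-1 line.

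**Figure D2:**
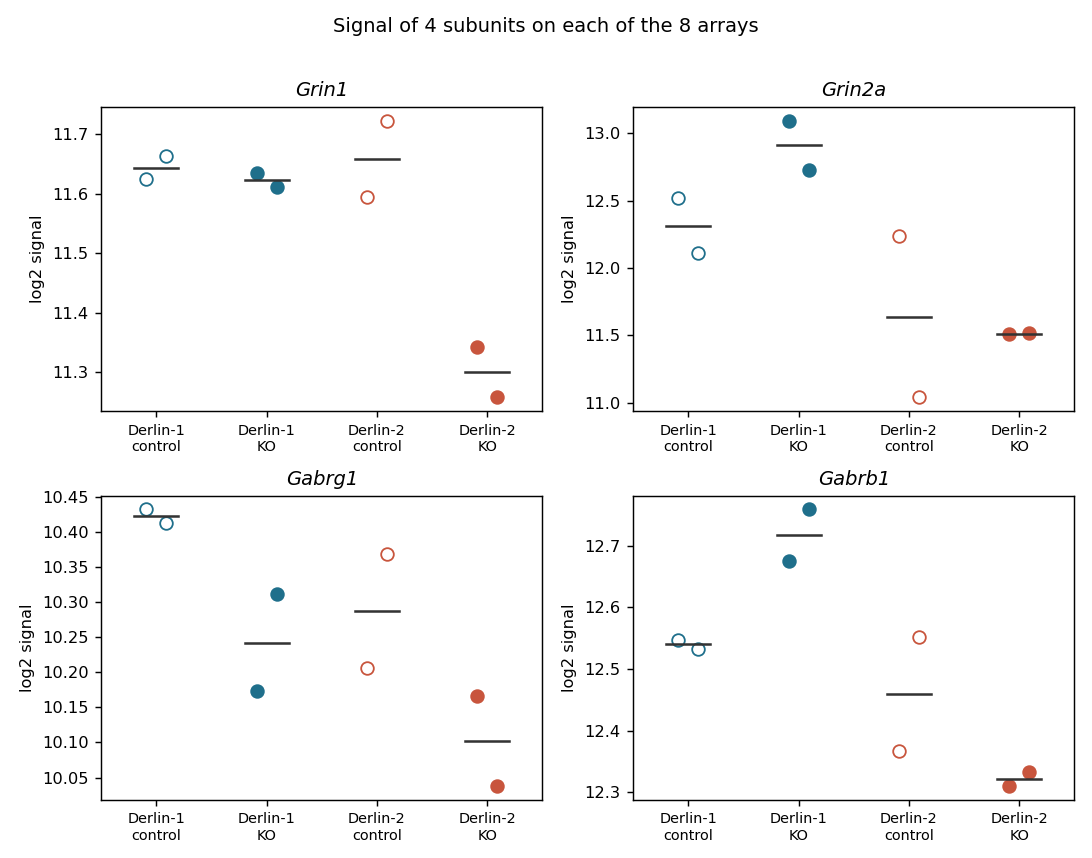
Log2 signal of Grin1, Grin2a, Gabrg1 and Gabrb1 on each of the 8 arrays; open circles are controls, filled circles KO, short lines group means, and each panel has its own vertical axis. The 2 Derlin-2 KO arrays are the lowest for Grin1, the KO arrays lie below the controls of their own line for Gabrg1, and for Gabrb1 they lie above them in the Derlin-1 line and below them in the Derlin-2 line.

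Kainate receptors act on both sides of the synapse, at the mossy fibre endings of granule cells among other places. Grik1 read 12.51 and 13.57 in the Derlin-1 controls and 12.64 on both KO arrays, so that its difference of -0.40 (SE 0.321) rested on Derlin-1 control replicate 2, and over all settings tried it ranged from -0.93 to 0.13. Its Derlin-2 controls read 14.51 and 14.71 and the KO arrays of that line 14.34 and 14.33, a difference of -0.27. Grik2 read 6.99 and 7.03 in the Derlin-2 controls and 7.15 and 7.77 in KO. Its difference of 0.45 (SE 0.224, interval -0.093 to 0.998, adjusted p = 0.968 in limma) was the highest of that line, and its other kept probes differed by 0.19 and 0.14. Grik3 differed by 0.33 in the Derlin-1 line (SE 0.188) and by 0.16 in the Derlin-2 line. Grik4 and Grik5, the high-affinity subunits that need a partner from Grik1 to Grik3 to form a channel, differed by between -0.097 and 0.095. Grik5 varied by 0.11 over all 8 arrays.

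By the brightest probe the metabotropic receptors gave estimates between -0.13 and 0.077, and all 6 had intervals within 1.5-fold in both lines. Dimmer kept probes of Grm5 differed by 0.13 and 0.19 in the Derlin-1 line and by 0.040 and 0.32 in the Derlin-2 line. Those of Grm7 differed by 0.34 and -0.0025 in the Derlin-1 line and by 0.36 and -0.074 in the Derlin-2 line (SE 0.293 and 0.369). That of Grm8 differed by 0.052 and 0.18. Grm5, which signals through phospholipase C, averaged 13.59 ± 0.048 in the Derlin-1 controls and 13.56 ± 0.056 in KO, and 13.71 ± 0.091 in the Derlin-2 controls and 13.77 ± 0.091 in KO (SD, n = 2). Grm2 and Grm3, which inhibit adenylyl cyclase, differed by 0.046 and -0.071 in the Derlin-1 line and by -0.066 and -0.035 in the Derlin-2 line. Grm4, Grm7 and Grm8, the presynaptic receptors of the remaining group, differed by -0.13, 0.055 and -0.030 in the Derlin-1 line and by 0.067, 0.068 and 0.077 in the Derlin-2 line.

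Of the GABA-A receptor subunits, Gabrg1, Gabra2, Gabra4 and Gabrb1 are neighbours on mouse chromosome 5 in the RefSeq annotation of GRCm38.p6, with Cox7b2 between Gabra2 and Gabra4. The 250 bases before the start are printed for Gabrg1 (chr5:70842618-70842867, minus strand), whose KO arrays lay below the controls in each line, and for Gabra4 (chr5:71658309-71658558, minus strand) and Gabrb1 (chr5:71657671-71657920, plus strand), whose starts lie 387 bases apart with the transcripts running towards and past each other. Capitals mark the GC box GGGCGG on either strand, which appears as CCGCCC when it lies on the opposite strand.
Gabrg1: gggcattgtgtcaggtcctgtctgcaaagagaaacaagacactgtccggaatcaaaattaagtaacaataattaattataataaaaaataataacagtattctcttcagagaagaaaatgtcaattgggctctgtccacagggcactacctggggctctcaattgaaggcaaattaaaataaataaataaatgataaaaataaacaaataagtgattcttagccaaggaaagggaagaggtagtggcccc
Gabra4: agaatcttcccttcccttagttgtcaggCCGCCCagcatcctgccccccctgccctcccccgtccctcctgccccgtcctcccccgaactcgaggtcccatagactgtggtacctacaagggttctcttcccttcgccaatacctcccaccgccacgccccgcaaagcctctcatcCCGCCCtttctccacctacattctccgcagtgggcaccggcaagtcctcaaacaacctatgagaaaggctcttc
Gabrb1: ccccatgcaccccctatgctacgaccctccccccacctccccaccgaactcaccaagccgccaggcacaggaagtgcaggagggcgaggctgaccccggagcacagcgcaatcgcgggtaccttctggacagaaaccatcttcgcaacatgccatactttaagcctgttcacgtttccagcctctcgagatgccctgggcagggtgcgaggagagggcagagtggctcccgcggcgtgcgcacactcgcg
The Gabrg1 window was poor in CpG, with 1 such dinucleotide, whereas that of Gabra4 held 12 and the printed one of Gabrb1 held 18. Gabrb1 also had a further RefSeq start, whose window (chr5:71699682-71699931, plus strand) held 6 and is not printed. The distance of 387 bases refers to the printed start. The GC box occurred 2 times in the Gabra4 window and in neither of the other printed windows. It was present in 32.7% of all windows and in 15 of the 30 windows of the 23 subunits with an entry, some of which have several. The sequence TATAAA was present in 12.4% of all windows and in 3 of these 30, which belong to Gabra3 and Gabrb2. No motif overlapped another in the printed windows. Where the probes lie relative to the overlap of Gabra4 and Gabrb1 was not examined.

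Gabrg1 encodes a gamma subunit, and it read 10.43 and 10.41 in the Derlin-1 controls and 10.17 and 10.31 in KO. It read 10.21 and 10.37 in the Derlin-2 controls and 10.17 and 10.04 in KO. The KO arrays thus lay below the controls of their own line, by a log2 difference of -0.18 (SE 0.113) in each, and the mean effect of both lines was -0.18 (interval -0.38 to 0.013, adjusted p = 0.9998 in limma). Its other kept probe differed by -0.14 in the Derlin-1 line and by 0.13 in the Derlin-2 line. The brightest Gabrg1 probe was printed near one end of the array, within the last eighth of its rows, as were those of Gria1, Grik5, Grm4 and Gabbr2. Without the probes of these rows, 4 in place of 14 probes were called over the whole array in the Derlin-2 line, and the part of this position in the Gabrg1 value was not tested.

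Gabrb1, a beta subunit, read 12.55 and 12.53 in the Derlin-1 controls and 12.68 and 12.76 in KO. Its Derlin-2 controls read 12.37 and 12.55, and the KO arrays 12.31 and 12.33. Its KO arrays lay beyond the controls in opposite directions, as did 5.64% of all genes, and the KO effects of the lines differed by 0.31 (interval -0.048 to 0.68, adjusted p = 0.862 in limma). Its neighbour Gabra4, the alpha subunit that pairs with Gabrd, read 13.49 and 13.14 in the Derlin-1 controls and 13.25 and 12.96 in KO, and 13.32 and 13.44 in the Derlin-2 controls and 13.47 and 13.39 in KO. The Gabra4 groups overlapped in both lines, with differences of -0.21 and 0.050 (SE 0.161). Gabrd differed by -0.14 and -0.067 (SE 0.234). Gabra5, an alpha subunit of extrasynaptic receptors in the hippocampus, differed by -0.041 and 0.11, and Gabrb2, the beta subunit of common synaptic receptors, by 0.027 and 0.039. The alpha subunits Gabra2 and Gabra3 differed by 0.12 and 0.010 in the Derlin-1 line and by 0.20 and -0.20 in the Derlin-2 line, and Gabrg3 by 0.17 and -0.089.

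Of the GABA-B subunits, Gabbr1, which binds GABA, read 14.41 and 14.22 in the Derlin-2 controls and 14.01 and 14.06 in KO. Both KO arrays lay below the controls, with a log2 difference of -0.28 (SE 0.119, interval -0.57 to 0.0091, adjusted p = 0.923 in limma). Its other kept probes differed by -0.16 and -0.15 in that line. In the Derlin-1 line Gabbr1 differed by -0.088. Gabbr2, which couples the receptor to its G protein, differed by -0.13 in the Derlin-1 line and by 0.15 in the Derlin-2 line.

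The agreement between probes of one gene was limited. For 22 subunits more than 1 probe was kept, and of the 39 further probes 16 differed from the brightest in sign in the Derlin-1 line and only 7 did so in the Derlin-2 line. Over all 71 kept probes of the subunits, an unadjusted p under 0.05 in limma was reached by 1 in the Derlin-1 line, against 4.69% of all probes, and by 3 in the Derlin-2 line, against 5.49%, and none passed after adjustment. Besides Grin1 these were 1 probe of Gabrg3, at 0.66 (SE 0.215) in the Derlin-1 line, and probes of Gria3 and Grik1, at -0.38 (SE 0.126) and -0.56 (SE 0.204) in the Derlin-2 line, named after their values were seen.

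**Figure D3:**
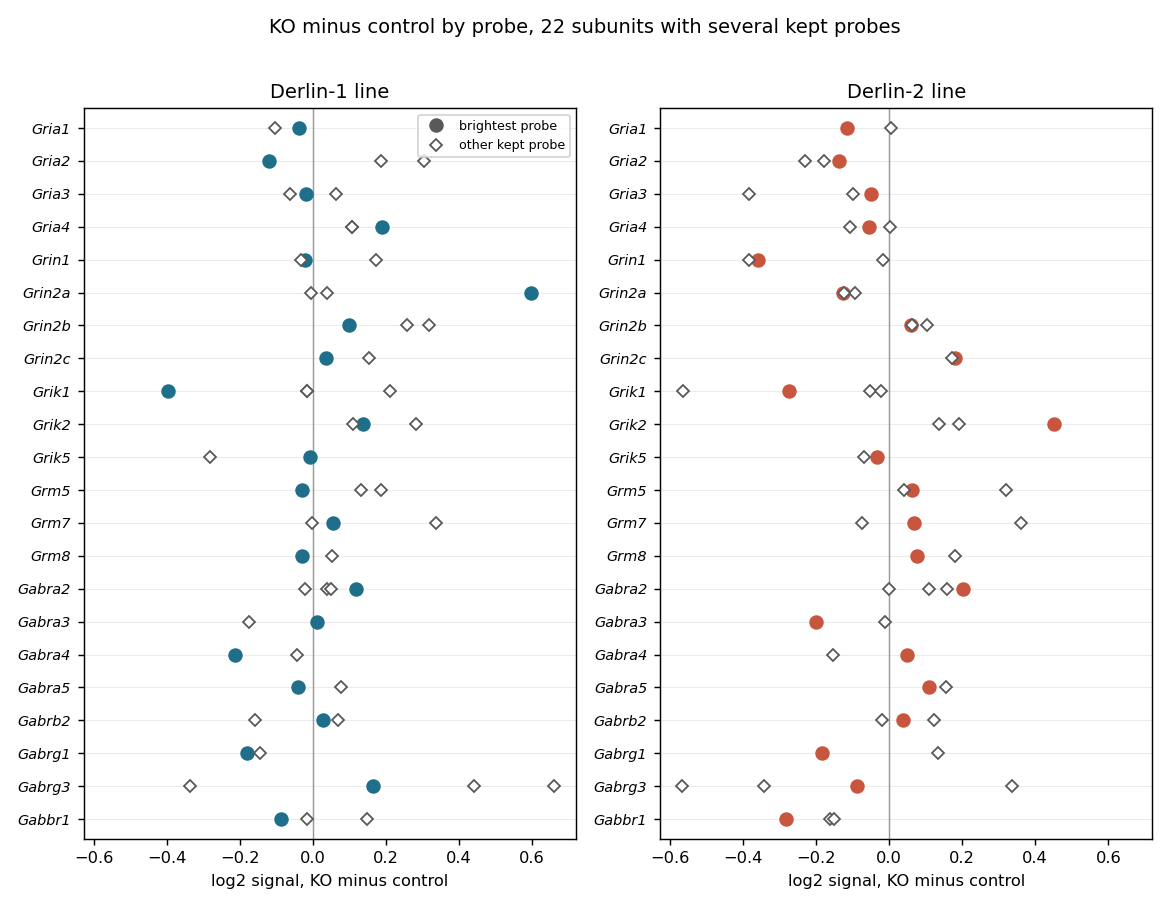
Log2 signal in KO minus control for each kept probe of the 22 subunits with several kept probes, in the Derlin-1 line (left) and the Derlin-2 line (right); filled circles are the brightest probe and open diamonds the others. The Grin2a circle at 0.60 in the Derlin-1 line stands apart from its diamonds near 0, and 1 of the Grin1 diamonds in the Derlin-2 line lies at -0.38 beside the circle at -0.36.

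The genes that assemble, anchor and supply these receptors were examined next. All 56 auxiliary subunits, scaffolds and genes of transmitter synthesis, loading and uptake passed the filter, and 0 passed the adjusted threshold in limma in either line. The KO mean was above the control mean for 20 in the Derlin-1 line and for 21 in the Derlin-2 line, with median log2 differences of -0.046 and -0.063. Over all genes it was above for 8761 of 19890 and 10363 of 19810, with medians of -0.020 and 0.0078. An unadjusted p under 0.05 was reached by 2 partners in the Derlin-1 line, Gsg1l and Dlg1, against 4.23% of all genes, and by 1 in the Derlin-2 line, Shisa7, against 4.64%.

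Gsg1l, an auxiliary subunit of AMPA receptors, read 9.88 and 9.48 in the Derlin-1 controls and 9.11 and 8.99 in KO, a difference of -0.63 (SE 0.193, adjusted p = 0.9999 in limma). Dlg1, the scaffold SAP97, read 9.73 and 9.93 in the Derlin-1 controls and 10.31 and 10.21 in KO, a difference of 0.43 (SE 0.151, adjusted p = 0.9999 in limma). Both KO arrays lay below both controls for Gsg1l, as did those of 17.9% of all genes. They lay above both controls for Dlg1, as did those of 16.2%. Ranked by p within each direction, the next in that line were the scaffolds Shank2 (0.30) and Pick1 (0.40) on the higher side, and on the lower side the GABA transporter Slc6a11 (-0.25) and the AMPA receptor auxiliary subunit Cacng8 (-0.29).

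Shisa7, an auxiliary subunit of GABA-A receptors, read 11.44 and 11.42 in the Derlin-2 controls and 10.99 and 11.04 in KO, whereas it read 11.46 and 11.43 in the Derlin-1 controls and 11.54 and 11.42 in KO. Both Derlin-2 KO arrays lay below both controls of that line, as did those of 14.6% of all genes. The difference in the Derlin-2 line was -0.41 (SE 0.095), with an adjusted p = 0.556 in limma. The estimate was 0.033 in the Derlin-1 line, and the KO effects of the lines differed by 0.45 (adjusted p = 0.754 in limma). The Shisa7, Gsg1l and Cacng8 probes were also among those near the end of the array. On the lower side of the Derlin-2 line the next by p were Homer2 (-0.26), a scaffold of metabotropic receptors, and Clptm1 (-0.21), which retains GABA-A receptors in the endoplasmic reticulum. On the higher side, where no partner reached an unadjusted p under 0.05, the first by p were Kctd16 (0.34), an auxiliary subunit of GABA-B receptors, Cacng2 (0.18) and Homer1 (0.15).

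Finally, subunit levels were compared between the controls of the lines, which differ in the floxed gene and in the slide. The control arrays did not overlap for 15 of the 32 subunits, or 46.9%, against 54.6% of all genes. The Derlin-2 controls were higher for 9 of these and lower for 6, and the median size of the log2 difference was 0.14 over the subunits and 0.23 over all genes. By the brightest probe, a 2-fold difference was passed by Grik1 and Grin2d, against 6.55% of all genes. Dimmer kept probes passed it for Gabra4, at 1.15 beside 0.064 by its brightest probe, and for Grm7, at -1.09 beside -0.019. The probes of these 2 subunits thus did not give the same result. Grik1 was higher in the Derlin-2 controls by 1.57, and its other probes were higher by 0.48, 0.77 and 0.29. Grin2d read 10.97 and 11.73 in the Derlin-1 controls and 12.49 and 13.22 in the Derlin-2 controls, a difference of 1.503. This rested on a single probe, since the other Grin2d probe, at a mean of 2.66, did not pass the filter on dim probes. Gabra3 was higher by 0.65. Grin2a, Gabrd and Gria2 were lower by a log2 difference of -0.68, -0.62 and -0.45, and for Grin2a the control arrays overlapped. For Grik1, Grin2d and Gabrd the difference between the controls was larger in size than the KO minus control difference in either line. The same held for other subunits, among them Gria2, Gria3 and Gabra3. Over all genes the median size of the log2 difference was likewise larger between the controls, 0.23, than between KO and control, 0.10 in each line.

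**Figure D4:**
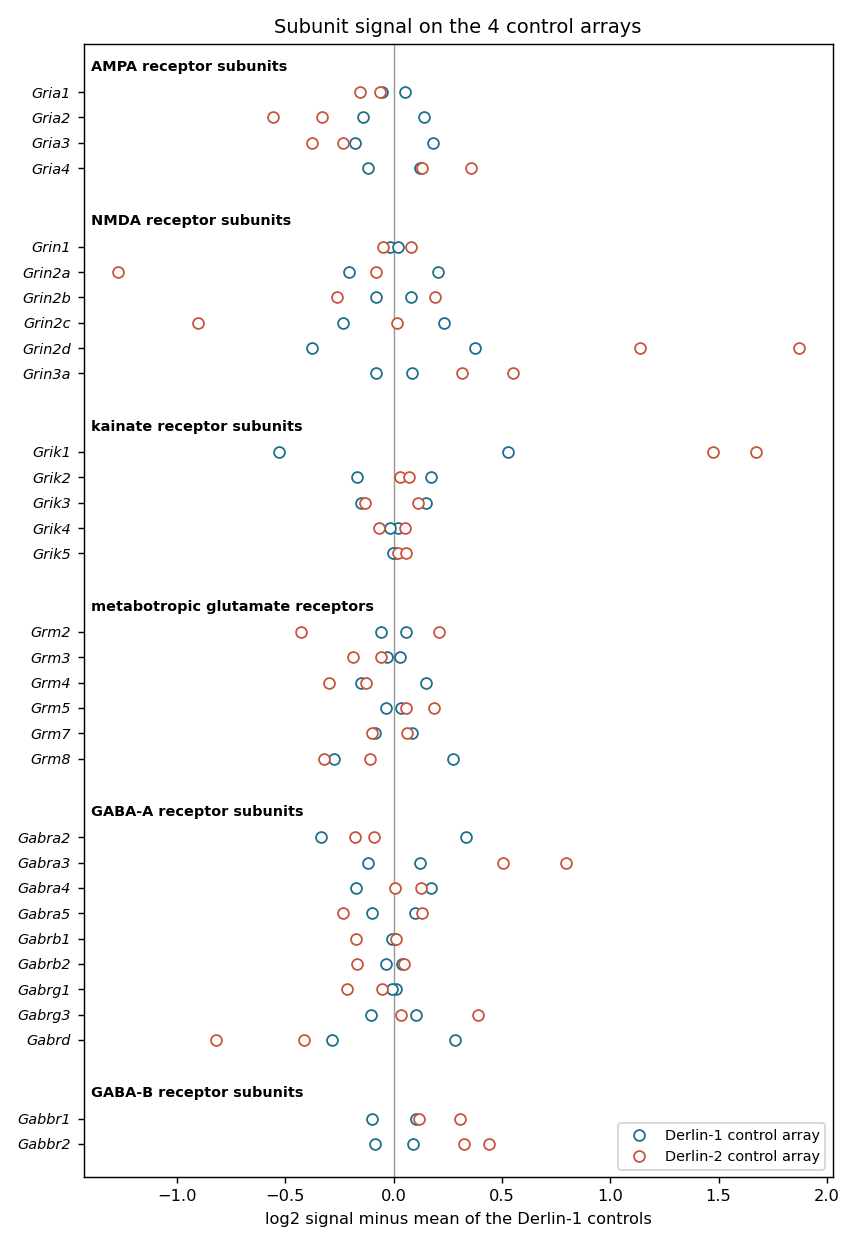
Log2 signal on the 2 Derlin-1 control arrays (blue) and the 2 Derlin-2 control arrays (red) minus the mean of the Derlin-1 controls, for the 32 subunits by receptor class. The Derlin-2 controls lie to the right for Grik1 and Grin2d, by 1.57 and 1.503 on average, whereas the median size of the difference over the 32 subunits is 0.14.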

How the data were processed

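Total RNA of 8 dentate gyrus samples was amplified, labelled with Cy3 and hybridised to Agilent mouse arrays. The deposited scanner files give spot intensity values that, per the file headers, Agilent Feature Extraction 10.7.1.1 had background-subtracted and detrended. The authors also deposited log2 values made in GeneSpring by quantile normalization and a shift to each probe's median over a larger set of samples, which served as an alternative and as the source of gene symbols. Their columns of fold changes were not used.

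The processed intensity was floored at 1, taken to log2 and quantile-normalized over the 8 arrays, without 3671 control spots and without spots marked as outliers. Spots of one probe were averaged, and 39937 of 56605 probes well above background on both arrays of at least 1 group were kept. Each gene was represented by its brightest kept probe. limma 3.58.1 in R 4.3.3 fitted the 4 group means (4 residual and 2.08 prior degrees of freedom), and p-values were two-sided and adjusted over all kept probes by Benjamini-Hochberg with a threshold of 0.05. Values on every array were given for subunits with an unadjusted p under 0.05, with KO arrays on one side of the controls in both lines, or with a log2 difference of at least 0.5, and for some others, chosen after their values were seen. Up to 3 partner genes with the smallest p were named for each line and direction.

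The alternatives were 75th percentile scaling, normexp (offset 50) on median signals, other filters on dim probes, the mean of all probes of a gene, the deposited log2 values, a fit on each line alone, a replicate block, omission of each array, a 1.5-fold rule in place of the adjusted p, and omission of the last eighth of the rows, which was added later. Same-numbered arrays of KO and control deviated from their group means with a correlation of 0.266 for Derlin-1 and of -0.0981 for Derlin-2. The members and gene lists were chosen with earlier results of these data known. Promoter windows came from RefSeq (GRCm38.p6).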

Additional observations from a re-analysis of the deposited data

How the results depend on the processing

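No subunit passed the adjusted threshold in limma under any scaling, background correction, filter, fit or omission of an array that was run, and no partner gene did under those run for the partners (75th percentile scaling, normexp, the replicate block and the omission of each array). The lowest adjusted p of a subunit was 0.195, for the difference of the KO effects without Derlin-2 control replicate 2, and 0.265 in either line or their mean. A 1.5-fold rule in place of the adjusted p selected 1 subunit for Derlin-1 and 1 for the difference of the KO effects, Grin2a in each, and over all probes 1829 for Derlin-1, 2246 for Derlin-2, 4721 for the difference and 883 for the mean of both lines. The median log2 difference of the subunits in the Derlin-1 line was 0.013 with the mean of all kept probes of a gene and -0.038 to 0.022 when 1 array was omitted. When 1 array was omitted it was -0.070 to -0.0011 in the Derlin-2 line, -0.033 to 0.063 for the difference and -0.051 to 0.016 for the mean. The median difference of the KO effects, 0.011, was -0.021 with normexp and -0.028 with the deposited log2 values. Grin1 in the Derlin-1 line was 0.040 with the mean of all its probes, and Grin2a in the Derlin-2 line was -0.72 to 0.47 when 1 array was omitted, the upper value without Derlin-2 control replicate 1.

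The number of probes called over the whole array was less stable, and the cause was not tested. For the Derlin-2 line, 14 calls became 2 with normexp, 29 with no filter on dim probes, 2 with probes well above background on all 8 arrays, 0 when each line was fitted alone, 0 with the replicate block, 4 without the last eighth of the rows, and 3 to 50 when 1 array was omitted, the lowest number without Derlin-1 control replicate 1 or 2 and the highest without Derlin-2 control replicate 1. For the difference of the KO effects, 2 calls became 0 with normexp, 0 with no filter, 0 with the stricter filter, 0 with the replicate block, 0 without the last eighth of the rows and 0 to 16 when 1 array was omitted. For the mean of both lines, 4 calls became 0 with normexp, 7 with no filter, 0 with the stricter filter, 2 with the deposited log2 values, 0 with the replicate block, 0 without the last eighth of the rows and 0 to 20 when 1 array was omitted. The Derlin-1 line gave 0 to 1 calls when 1 array was omitted. The replicate numbers are not stated to pair the samples, and the replicate block gave 0 called subunits in each comparison. With 2 arrays a group, subunits with an SE above 0.3 (Grin2a, Grin2c, Grin2d and Grik1) allowed no statement about changes under 1.5-fold.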
